A study of Homo sapiens with 6 samples.

Results

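Neurexins, neuroligins and cerebellins are proteins that join the sending and the receiving side of a synapse. The transcripts of 9 such genes were read on arrays from the established medulloblastoma line D283. Its cells were grown as tumorspheres (floating clusters of cells), with the transcription factor OTX2 knocked down by siRNA or not. The genes were the neurexins NRXN2 and NRXN3, the neuroligins NLGN1, NLGN2 and NLGN3, and the cerebellins CBLN1, CBLN2, CBLN3 and CBLN4. They were taken by name, as the members of these families whose symbol stood alone on a transcript cluster of the array, and each of the 9 had 1 such cluster among 14884 genes named in the annotation and 53617 clusters in all. No filter on low values was applied, so all 9 were tested. Other members of the 3 families were not analysed here.

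Each of 6 arrays held RNA of 1 biological replicate per the study's methods, 3 of D283 tumorspheres given the siRNA s9931 against OTX2 (OTX2 KD) and 3 of D283 tumorspheres given a non-silencing siRNA (scramble). Both groups grew as floating spheres on plates that cells do not stick to, in DMEM/F12 medium with 1% N2, 1% B27, 20 ng/ml EGF and 20 ng/ml bFGF. D283 carries features of Group 3 and of Group 4 medulloblastoma. The knockdown rested on 1 siRNA in 1 cell line, so effects of that siRNA on other transcripts cannot be told apart from those of OTX2.

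Neurexins sit in the membrane of the axon terminal, in long and short forms that start from separate promoters of the same gene. Neuroligins, in the membrane of the receiving neuron, bind them directly. Cerebellins are small secreted proteins of the C1q family. CBLN1 binds neurexins on one side and delta-type glutamate receptors on the other, which need not hold for every cerebellin. In the cerebellum, where medulloblastoma arises, granule cells release CBLN1 and need it to keep their synapses on Purkinje cells, as shown in mice.

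Among the 9 genes, 4 rose and 2 fell after OTX2 KD at a Benjamini-Hochberg adjusted p below 0.05 (limma, two-sided, over all clusters), and 3 did not pass. CBLN1 fell 2.92-fold, the change with the smallest p of the set, and NRXN3 fell 1.79-fold. NLGN3 rose 2.14-fold, CBLN2 2.12-fold and NRXN2 1.69-fold, and CBLN3 rose 1.21-fold. NLGN1, NLGN2 and CBLN4 had log2 differences of 0.17, 0.22 and -0.30 that did not pass. Called genes thus made up 66.7% of the 9. Over all 53617 clusters 27.9% were called, and over the 16098 clusters with a gene symbol 38.8%. The 9 genes were chosen with earlier results of these data known, and the call of CBLN3 was lost without any 1 array. Of all clusters, 14.8% were called higher and 13.1% lower (7932 and 7034 clusters, or 6027 and 8611 after median centring of the arrays). A change of at least 2-fold as well was found for 3 of the 9 genes (NLGN3, CBLN2 and CBLN1) and for 6.74% of all clusters. The 3 values of one group lay apart from the 3 of the other for all 9 genes and for 42.0% of all clusters. That holds for the values as deposited, where every OTX2 KD array median lay above every scramble median. The count was not repeated after median centring, which narrows the gap of genes that rose. For NLGN1 the gap was 0.10 log2 units as deposited, so its groups may overlap after centring. The median log2 fold change was 0.22 over the 9 genes, 0.05 over all clusters and 0.01 over clusters with a symbol.

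**Figure D1:**
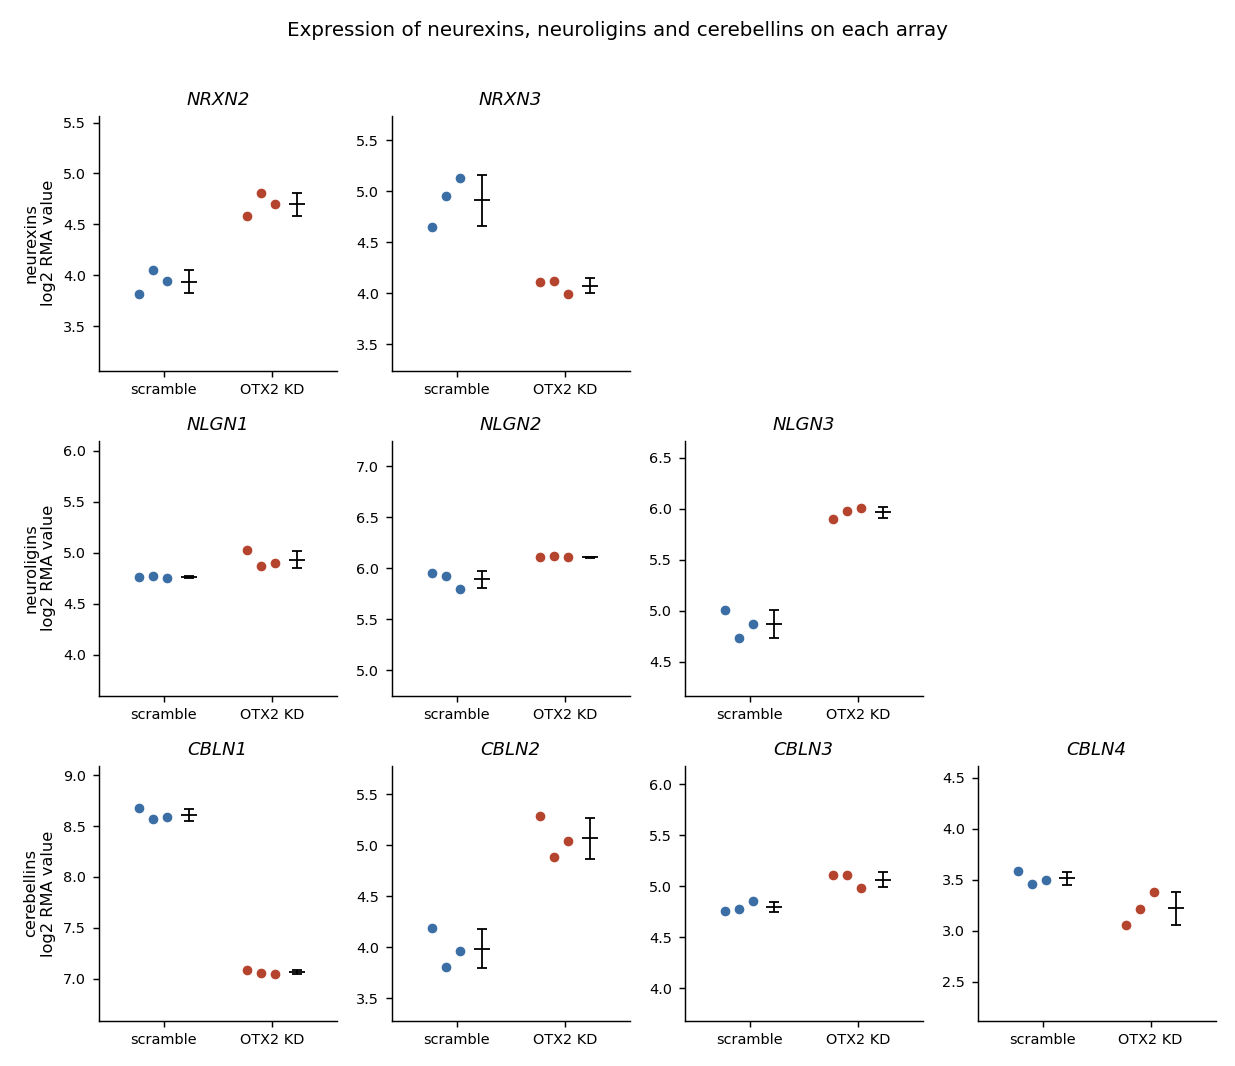
Log2 RMA value of each gene (y axis, each panel spanning the same log2 range) on the 3 scramble arrays (blue) and the 3 OTX2 KD arrays (red), with the group mean and SD in black. The groups lie apart in every panel, by 1.47 log2 units for CBLN1 and by 0.07 for CBLN4.

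OTX2 itself was checked first. Its values were 9.62, 9.57 and 9.57 log2 units in OTX2 KD and 10.56, 10.56 and 10.55 in scramble. The groups did not overlap, and the log2 fold change was -0.97 ± 0.073 (SE, limma, adjusted p = 8.7e-05). The OTX2 transcript thus fell 1.96-fold and stayed among the brightest clusters, at percentile 98.5 on its lowest array. Of 10 measured marker genes of Group 3 and Group 4 tumours, OTX2 among them, 7 fell, 2 rose and 1 did not pass, and the mean of their levels was 6.95 to 7.04 in OTX2 KD and 7.58 to 7.67 in scramble. All 6 measured neuronal markers rose, and the mean of their log2 levels was 8.81 to 8.89 in OTX2 KD and 6.37 to 6.46 in scramble. Of 9 markers of the granule cell lineage, 3 rose, 1 fell and 5 did not pass, with a median log2 fold change of 0.10. Their mean level was 5.48 to 5.59 in OTX2 KD and 4.84 to 4.93 in scramble, and NHLH1, with a log2 fold change of 4.28, made up most of that difference. Of markers of other cell types, 0 of 5 passed for Purkinje cells, 0 of 3 for astrocytes, 0 of 4 for endothelium and 0 of 2 for fibroblasts, with 1 of 5 for oligodendrocytes (OLIG2, higher) and 2 of 4 for leukocytes (CD68 and LYZ, higher, the latter at 1 of its 2 clusters only). For the 4 lists with no call in limma, 0 genes also had an unadjusted p below 0.05. Below the array median on all arrays lay 3 of the 5 Purkinje markers, 2 of 3 for astrocytes, 2 of 5 for oligodendrocytes, 3 of 4 for endothelium, 1 of 4 for leukocytes and 2 of 2 for fibroblasts. Mean levels in OTX2 KD and scramble were 3.32 to 3.36 and 3.32 to 3.42 for the Purkinje list, 3.27 to 3.35 and 3.03 to 3.29 for astrocytes, and 4.20 to 4.32 and 3.91 to 4.03 for oligodendrocytes. They were 3.63 to 3.81 and 3.49 to 3.71 for endothelium, 4.19 to 4.25 and 3.57 to 3.80 for leukocytes, and 2.26 to 2.31 and 2.00 to 2.28 for fibroblasts. The mean levels of the neuronal, granule cell, oligodendrocyte and leukocyte lists lay higher on every OTX2 KD array, and their part in the changes below was not tested. In RNA from whole tumorspheres, a change in the share of cells that make a transcript and a change in its amount per cell cannot be told apart.

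Promoter windows were examined because OTX2 is a DNA-binding protein and the study names TAATCC and TAATCT as its motifs. The study states that these sequences are not specific to OTX2. It also mapped OTX2 binding in D283 tumorspheres by ChIP-seq, over much wider regions around start sites. Those binding data were not used here. RefSeq windows on build GRCh38.p14, from 250 bases before to 50 bases after an annotated start, were at hand for 6 of the 9 genes (NRXN3, NLGN1, NLGN2, NLGN3, CBLN2 and CBLN3), 9 windows together. On both strands, 1 of the 9 windows held either motif, and among 35116 windows of all genes 6.36% held TAATCC, 7.17% TAATCT and 12.8% one or the other. The window with the match belonged to NRXN3, which fell, and lay at chr14:78403469-78403768 on the plus strand. Its TAATCT is on the minus strand, at bases 5 to 10 counted from the start site as base 1, and reads AGATTA on the strand printed, where capitals mark it. The other pair of NRXN3 windows held no match, and the array does not tell which start was in use. The windows of NLGN3 (chrX:71144591-71144890, plus strand) and CBLN2 (chr18:72544293-72544592, minus strand) are shown beside it because these genes rose at least 2-fold, and neither holds the letters of either motif. A match is a description of the sequence and not a measured binding site.
NRXN3: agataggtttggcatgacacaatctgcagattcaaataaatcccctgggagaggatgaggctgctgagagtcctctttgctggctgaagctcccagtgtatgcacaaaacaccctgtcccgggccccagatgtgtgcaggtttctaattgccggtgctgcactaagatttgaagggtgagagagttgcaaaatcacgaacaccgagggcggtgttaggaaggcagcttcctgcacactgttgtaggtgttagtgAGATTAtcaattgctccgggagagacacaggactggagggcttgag
NLGN3: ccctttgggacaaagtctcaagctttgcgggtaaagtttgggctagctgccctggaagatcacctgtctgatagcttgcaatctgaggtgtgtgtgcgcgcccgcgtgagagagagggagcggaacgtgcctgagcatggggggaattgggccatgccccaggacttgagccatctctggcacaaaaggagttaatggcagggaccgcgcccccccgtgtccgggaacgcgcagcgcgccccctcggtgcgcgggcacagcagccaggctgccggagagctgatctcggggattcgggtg
CBLN2: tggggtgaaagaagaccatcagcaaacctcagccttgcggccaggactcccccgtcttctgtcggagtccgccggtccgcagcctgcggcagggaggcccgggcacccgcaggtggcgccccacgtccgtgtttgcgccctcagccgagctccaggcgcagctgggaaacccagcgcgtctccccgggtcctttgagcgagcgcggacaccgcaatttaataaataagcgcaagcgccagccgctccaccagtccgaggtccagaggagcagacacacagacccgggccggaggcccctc

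The neurexins moved in opposite directions. NRXN2, a presynaptic neurexin, had values of 4.58, 4.81 and 4.70 in OTX2 KD and 3.82, 4.05 and 3.95 in scramble. All OTX2 KD arrays were above all scramble arrays, by at least 0.53 log2 units. The log2 fold change was 0.76 ± 0.10 (SE, adjusted p = 0.00118), with a 95% interval from 0.52 to 0.99. NRXN3, the other neurexin of the set, had values of 4.11, 4.12 and 3.99 in OTX2 KD and 4.65, 4.96 and 5.13 in scramble. All OTX2 KD arrays were lower, and the scramble arrays were the more spread group (SD 0.247, against 0.073). The log2 fold change was -0.84 ± 0.133 (SE, adjusted p = 0.00282), with an interval from -1.15 to -0.53. A log2 change of larger size was found for 11.5% of all clusters in the case of NRXN2 and for 9.6% in the case of NRXN3.

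Of the neuroligins, NLGN3 rose. NLGN3, which is found at both excitatory and inhibitory synapses in rodents, had values of 5.90, 5.98 and 6.01 in OTX2 KD and 5.005, 4.74 and 4.87 in scramble. The groups lay 0.90 log2 units apart, the widest gap among the genes that rose. The log2 fold change was 1.09 ± 0.096 (SE, adjusted p = 0.00017). NLGN1, best known from excitatory synapses, had values of 5.03, 4.87 and 4.90 in OTX2 KD and 4.77, 4.77 and 4.75 in scramble. All OTX2 KD arrays were higher, but by as little as 0.10 log2 units, and the difference of 0.17 ± 0.080 (SE) did not pass (adjusted p = 0.169, 95% interval -0.02 to 0.36). NLGN2, the neuroligin of inhibitory synapses, had values of 6.11, 6.12 and 6.11 in OTX2 KD and 5.95, 5.92 and 5.80 in scramble. Again all OTX2 KD arrays were higher, and the difference of 0.22 ± 0.080 (SE) did not pass (adjusted p = 0.0864, unadjusted 95% interval 0.03 to 0.41). That call depended on scaling and on which clusters entered the fit and the adjustment. In limma the adjusted p was 0.0354 after a repeated quantile normalization and 0.0375 over clusters with a symbol. The adjusted p of NLGN2 ranged from 0.0315 to 0.291 over all alternatives.

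**Figure D2:**
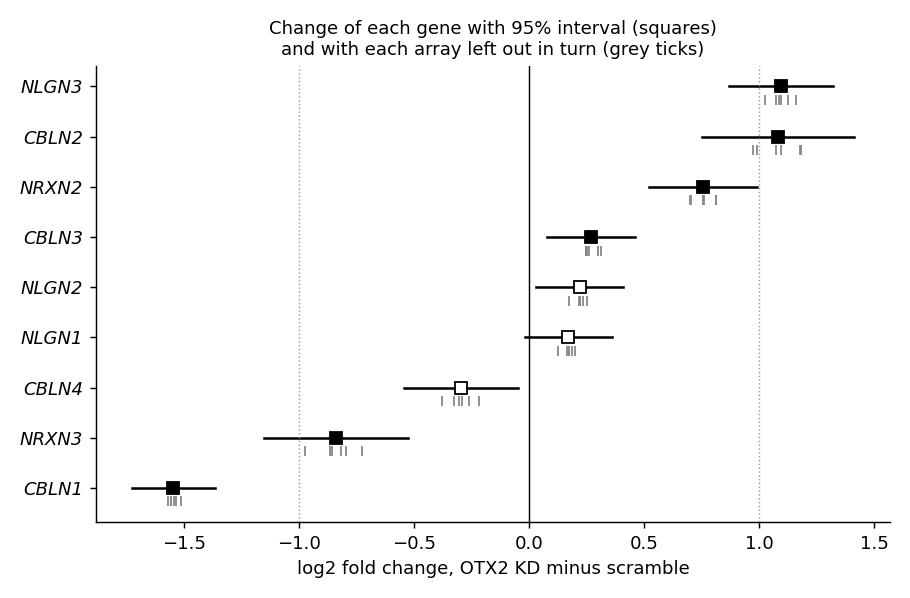
Log2 fold change of each gene (x axis, OTX2 KD minus scramble), with its 95% interval from limma as a line, a filled square where the adjusted p was below 0.05 and an open square otherwise, and grey ticks for the value with each of the 6 arrays left out. Dotted lines mark 2-fold. CBLN1 (-1.54) and NRXN3 (-0.84) lie on the lower side, NLGN3 (1.09), CBLN2 (1.08) and NRXN2 (0.76) on the higher side, and no left-out array turned a direction.

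The cerebellins split as well. CBLN1, a cerebellin that granule cells release, had values of 7.09, 7.06 and 7.05 in OTX2 KD and 8.68, 8.57 and 8.59 in scramble. The groups were tight and lay 1.47 log2 units apart, and the CBLN1 cluster was within the top part of every array (percentile 89.5 to 96.7 of all clusters). The log2 fold change was -1.54 ± 0.077 (SE, adjusted p = 1.52e-05, 95% interval -1.73 to -1.36), and 2.42% of all clusters changed by more. CBLN2, a cerebellin made in many forebrain and brainstem neurons of mice, had values of 5.28, 4.88 and 5.04 in OTX2 KD and 4.19, 3.81 and 3.96 in scramble. Every OTX2 KD array was above every scramble array, with an SD of about the same size in both groups (0.203 and 0.192). CBLN2 was at percentile 53.6 on its lowest array, just above the array median, so the size of its rise is less certain. The log2 fold change was 1.08 ± 0.14 (SE, adjusted p = 0.00109). Without scramble replicate 2 or OTX2 KD replicate 1 it was 0.99 and 0.97, just under 2-fold, and still passed the test.

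CBLN3, which in mice is secreted only together with CBLN1, had values of 5.11, 5.11 and 4.98 in OTX2 KD and 4.76, 4.77 and 4.85 in scramble. All OTX2 KD arrays were higher, by at least 0.13 log2 units. The log2 fold change was 0.27 ± 0.082 (SE, adjusted p = 0.0464, 95% interval 0.08 to 0.46), so that the call lay close to the threshold. It was lost without any 1 of the 6 arrays (adjusted p = 0.0525 to 0.128) and after median centring (0.169), and the adjusted p ranged from 0.0153 to 0.169 over all alternatives. CBLN4, a cerebellin that binds neurexins and acts at inhibitory synapses in mice, was below the array median on all arrays (percentile 38.1 to 49.5), and signal over background was not measured. Its values were 3.06, 3.21 and 3.38 in OTX2 KD and 3.59, 3.46 and 3.50 in scramble. All OTX2 KD arrays were lower, by as little as 0.07 log2 units, and the difference of -0.30 ± 0.105 (SE) did not pass (adjusted p = 0.0786, unadjusted 95% interval -0.54 to -0.05). It passed after median centring (adjusted p = 0.0278), after a repeated quantile normalization (0.0282), over clusters with a symbol (0.036) and without OTX2 KD replicate 3 (0.0412), with a range from 0.0278 to 0.199 over all alternatives.

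Whether members of 1 family changed by different amounts was asked with the log2 difference between both genes within each array. An equal shift of all log2 values of an array does not change it, but other normalization can. After a repeated quantile normalization the difference of changes for NLGN1 minus NLGN2 was -0.16, against -0.05. In 9 of 10 pairs the 3 OTX2 KD differences lay apart from the 3 scramble differences, but each of the 9 genes already lay apart on its own and the share among other gene pairs of the array was not computed. The exact two-sided permutation test gave p = 0.1 for these 9 pairs, the smallest p that 3 arrays against 3 allow, and 0.111 after adjustment over the 10 pairs, so that no pair could pass. Among the 10 pairs the contrast was widest between CBLN1 and CBLN2. Their within-array difference was 4.49 to 4.76 in scramble and 1.81 to 2.18 in OTX2 KD, a change of -2.63 log2 units, or 6.18-fold in their ratio. For CBLN1 against CBLN3 the difference of changes was -1.81, and for CBLN1 against CBLN4, both lower in OTX2 KD, it was -1.25. NRXN2 against NRXN3 went from between -1.19 and -0.82 in scramble to between 0.47 and 0.71 in OTX2 KD, a change of 1.59. NLGN1 minus NLGN3 and NLGN2 minus NLGN3 had differences of changes of -0.92 and -0.88, so the higher change was that of NLGN3. For NLGN1 against NLGN2 the groups overlapped, from -1.19 to -1.05 in scramble and from -1.24 to -1.09 in OTX2 KD (exact permutation p = 0.5).

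**Figure D3:**
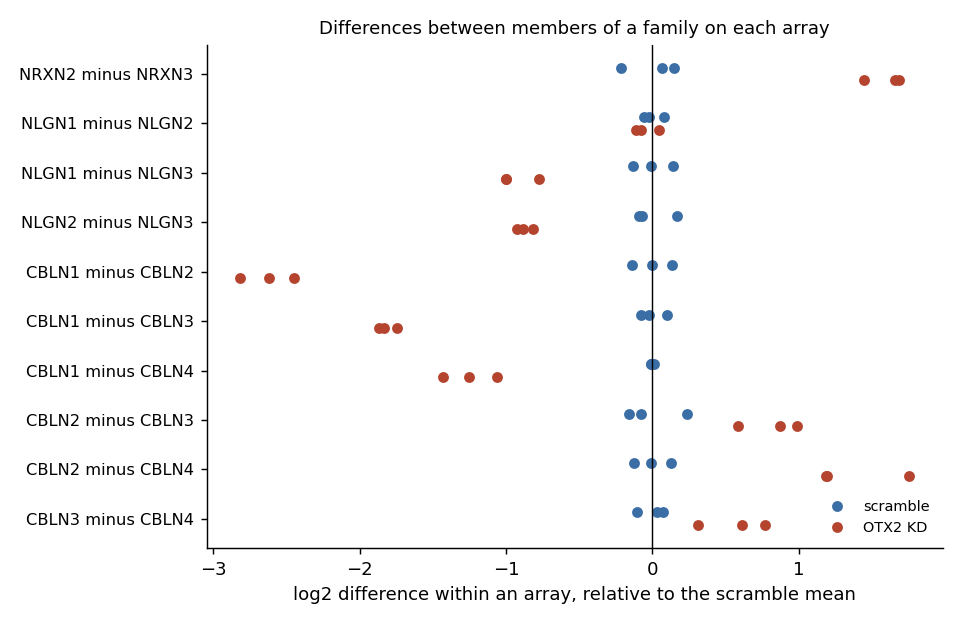
Log2 difference between both genes of a pair within each array (x axis, relative to the scramble mean of that pair), for all 10 pairs within a family, on scramble arrays (blue) and OTX2 KD arrays (red). The groups lie apart in 9 pairs, most widely for CBLN1 minus CBLN2 (-2.63), and overlap for NLGN1 minus NLGN2 (-0.05).

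Other genes of the same synaptic machinery were taken from 7 lists of 134 genes, of which 59 genes in 6 lists had a named cluster. Together 25 rose, 8 fell and 26 did not pass (55.9% called, against 38.8% of clusters with a symbol and 27.9% of all clusters), with a median log2 fold change of 0.21. All 14 called changes of at least 2-fold were rises. Of all clusters, 6.74% were called with a change of that size, 1672 clusters higher and 1941 lower.

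Genes for other ligands of neurexins rose more often than they fell. The list had 13 measured genes, of which 9 rose, 1 fell and 3 did not reach the threshold (median log2 fold change 0.57). Called genes were 76.9% of this list, against 38.8% of clusters with a symbol. ADGRL3, a latrophilin receptor, was at 7.02 to 7.09 in OTX2 KD and 3.56 to 3.69 in scramble, a log2 fold change of 3.42 (adjusted p = 2.55e-06). CLSTN2, a calsyntenin of the postsynaptic membrane, was at 9.88 to 9.96 and 7.24 to 7.31 (2.66, adjusted p = 3.22e-06). LRRTM1, a leucine-rich repeat protein of excitatory synapses, was at 5.26 to 5.76 and 3.44 to 3.48 (2.12, adjusted p = 5.11e-05). LRRTM1 lay below the array median on all 3 scramble arrays and ADGRL3 on 1 of them, and for such dim values the size of a rise is less certain. The 1 that fell was the secreted neurexophilin NXPH4, at 6.43 to 6.49 in OTX2 KD and 7.01 to 7.22 in scramble (-0.68, adjusted p = 0.00114).

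On the neuroligin side, MDGA1 is a membrane protein that covers the neurexin-binding face of neuroligins. It was at 5.71 to 5.79 in OTX2 KD and 4.44 to 4.71 in scramble (log2 fold change 1.16, adjusted p = 0.000137). The other 2 genes of that list did not pass. For MDGA2 (0.26) the groups lay apart (limma, adjusted p = 0.0563), and for LHFPL4 (0.07) they overlapped (adjusted p = 0.692). In the test over clusters with a symbol, 2 genes of this list were called higher. Among relatives of cerebellins and their receptors 2 genes were measured. ADGRB3, the receptor of C1q-like proteins related to cerebellins, was at 5.80 to 6.06 in OTX2 KD and 4.82 to 4.95 in scramble (1.03, adjusted p = 0.000231), while ADGRB1 differed by 0.02 with overlapping groups (adjusted p = 0.922). The list of receptors for glutamate and GABA was not analysed here.

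Among 11 measured genes for intracellular scaffolds, limma called 3 lower and 0 higher, and the other 8 did not reach the threshold. That is 27.3% of the list, no more than the 27.9% of all clusters and 38.8% of clusters with a symbol. At an unadjusted p below 0.05 there were 4 lower and 0 higher, and the median log2 fold change was -0.15. HOMER2, a scaffold of glutamate receptors, was at 6.20 to 6.36 in OTX2 KD and 7.07 to 7.36 in scramble (-0.95, adjusted p = 0.000461). LIN7A (-0.59) and LIN7B (-0.32), which join CASK in the complex on the neurexin tail, fell with adjusted p = 0.0171 and 0.0453, and CASK itself differed by 0.05 (adjusted p = 0.662). Without scramble replicate 2 or scramble replicate 3 the count of 3 was 1. Of 7 measured genes for enzymes that cut surface proteins, 3 fell and 1 rose (57.1% called, against 38.8% of clusters with a symbol). At an unadjusted p below 0.05 in limma, 3 of the 7 were lower and 3 higher. The same counts, 3 lower and 3 higher, were called in the test over clusters with a symbol. PSENEN (-0.62) and PSEN2 (-0.33), subunits of gamma-secretase, and the sheddase ADAM17 (-0.61) fell, and the gamma-secretase subunit APH1B rose (0.41, adjusted p = 0.0189). The call of APH1B was lost after median centring, and without OTX2 KD replicate 1, OTX2 KD replicate 2 or scramble replicate 3.

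**Figure D4:**
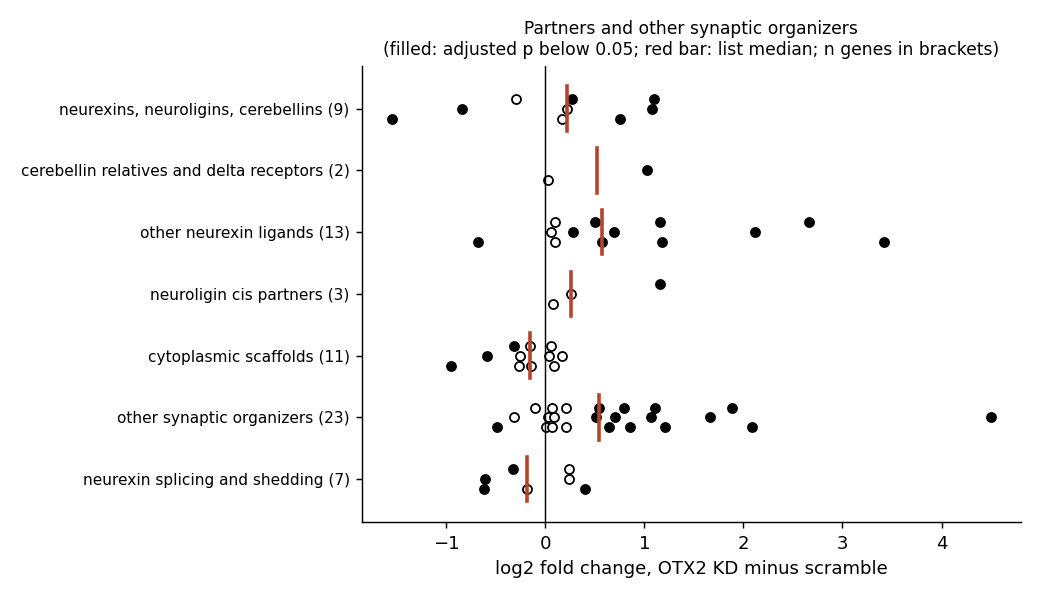
Log2 fold change (x axis, OTX2 KD minus scramble) of the 9 genes and of each measured gene of 6 lists of partners and other synaptic organizers, 1 point a gene. Filled points had an adjusted p below 0.05 and red bars are list medians, which lay at 0.57 for other neurexin ligands and at -0.15 for cytoplasmic scaffolds.

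Adhesion molecules that organize synapses without neurexins also rose more often than they fell, with 13 of 23 higher, 1 lower and 9 that did not pass (median 0.55, and 60.9% called against 38.8% of clusters with a symbol). NPTXR, the neuronal pentraxin receptor, was at 8.41 to 8.52 in OTX2 KD and 3.73 to 4.24 in scramble (log2 fold change 4.50, adjusted p = 3.58e-06). FLRT1, a membrane ligand of latrophilins, rose by 2.08 at its brighter cluster (adjusted p = 1.27e-05) but not at its other cluster, which was dim (-0.13, adjusted p = 0.491). LRRC4C, a netrin-G ligand, was at 4.00 to 4.21 in OTX2 KD and 2.02 to 2.48 in scramble (1.89, adjusted p = 6.44e-05), where it lay below the array median. FLRT2, a relative of FLRT1, fell (-0.49, adjusted p = 0.00746).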

How the data were processed

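The authors hybridized D283 tumorsphere RNA, 3 samples of OTX2 KD and 3 of scramble, to whole-transcript HuGene arrays (Affymetrix). The deposited values were log2 RMA expression values made by the authors with Affymetrix Expression Console (that is, probe background was corrected, arrays were quantile normalized and a median polish was run over the probes of each transcript cluster), and its version is not given in the sources used here. Groups and replicate numbers came from the sample titles. Clusters were named by GEO's platform annotation, with symbols updated through Entrez identifiers for the lists, and a gene with several clusters was represented by the brightest over all arrays.

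All 53617 clusters were fitted in R 4.3.3 with limma 3.58.1, using lmFit and then eBayes for a two-sided moderated test of OTX2 KD minus scramble (4 residual and 3.17 prior degrees of freedom), with Benjamini-Hochberg adjustment over all of them and with no filter on dim clusters. Array medians were 3.67 to 3.71 in OTX2 KD and 3.60 to 3.61 in scramble, so every OTX2 KD median was the higher. Median centring therefore lowered every log2 fold change, for NLGN1 from 0.17 to 0.08 and for CBLN3 from 0.27 to 0.18. The cause of the offset was not tested. The number of arrays limits the precision. Differences within a family were tested by an exact permutation test over arrays. Alternatives were a replicate block, median centring, a repeated quantile normalization, trend and robust variance, restriction to brighter clusters or to clusters with a symbol, the mean of a gene's clusters, a 2-fold limit and leaving out each array. The model was tested on simulated data. Plots used Python 3.11.15 and matplotlib 3.10.9. The 9 genes and the 7 lists were chosen with earlier results of these data known. All 9 genes are described, with OTX2 and, from each list, up to 3 genes that rose most and 3 that fell most, if their adjusted p was below 0.05 and the arrays of both groups lay apart. ADGRB1, MDGA2, LHFPL4, CASK and the named markers were chosen after their values were seen.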

Additional observations from a re-analysis of the deposited data

How the results depend on the processing

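No direction of the 9 genes or of the 10 pairs turned under any alternative run. CBLN1, NRXN2, NRXN3, NLGN3 and CBLN2 passed, and NLGN1 did not, under all of them, except that NRXN2 and NRXN3 changed by less than the 2-fold limit, as did CBLN2 after median centring and without OTX2 KD replicate 1 or scramble replicate 2. The log2 fold changes ranged from -1.63 to -1.51 for CBLN1, from -0.97 to -0.73 for NRXN3, from 0.67 to 0.81 for NRXN2, from 1.01 to 1.16 for NLGN3 and from 0.97 to 1.18 for CBLN2. CBLN3 did not pass with a replicate block (0.27), median centring (0.18), a repeated quantile normalization (0.24), or trend and robust variance (0.27), or without any 1 array (0.25 to 0.31). NLGN2 passed after a repeated quantile normalization (0.285), and over brighter clusters or clusters with a symbol (0.22 each). CBLN4 passed after median centring or a repeated quantile normalization (-0.38 each) and over clusters with a symbol (-0.30), and its values without 1 array ran from -0.38 to -0.22. Why these calls near the threshold changed was not tested. In the restricted tests fewer clusters entered the adjustment, and the model was also fitted anew to those clusters. That changed the SE, for NLGN2 to 0.0724 over clusters with a symbol, against 0.0803. CBLN4 could not be tested among brighter clusters, since it was below their limit. Each of the 9 genes had 1 cluster, so the mean of clusters was the same value.

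With a replicate block, 3 genes were higher and 2 lower of the 9, and 6774 clusters were higher and 6206 lower over the table. Over all clusters, same-numbered arrays did not deviate together (r = -0.06, -0.02 and -7e-04), and no sample correlated best with its own number. That check cannot exclude a pairing for single genes. With the block the SE was smaller for CBLN2 (0.0889 against 0.14) and NRXN2 (0.0888 against 0.0999). For the others of the 9 it was larger. With a 2-fold limit, 2 of the 9 were higher and 1 lower, 1672 clusters were higher and 1941 lower, and 14 companion genes were higher and 0 lower. Over clusters with a symbol, 3240 were higher and 4127 lower. After median centring 6027 clusters were higher and 8611 lower, against 7932 and 7034. Without 1 array, 5 to 7 companion genes were lower in place of 8, with 5 without scramble replicate 3. Of 168 counts of single lists under alternatives, 147 were equal to or within 1.5 times their main count. Among these are counts that were 0 or 1 and did not move, which say little about stability.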
